A study of Mus musculus with 18 samples.

Results

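The subunit genes of the SWI/SNF chromatin remodelling complexes were followed in 3 immortalised mouse embryonic fibroblast lines. A list of 31 gene symbols defined the group, and each symbol matched 1 row of the 55536 genes in the count table. The rule that picks them is the symbol alone, though the list was drawn up with earlier results of these data known. The lines were wild type (WT), a knock-out of p65 (p65 KO; p65 is the product of Rela and a subunit of NF-κB) and a knock-out of IKK2 (IKK2 KO, the IκB kinase subunit encoded by Ikbkb). All were grown in DMEM with 10% FBS, and each was left untreated or given TNF alpha at 10 ng/ml for 45 or 90 min. TNF is an inflammatory cytokine that activates NF-κB. This made 9 groups of 2 libraries, called a and b here, and 18 libraries in all. The labels name 1 line for each genotype, so the genotype and any other difference between the lines cannot be told apart. They do not say whether the libraries of a group came from separate cultures, and the p-values then measure only the spread between these libraries, which may be technical.

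SWI/SNF complexes use the energy of ATP to slide or evict nucleosomes, and so open or close DNA to transcription factors. Every complex holds a single ATPase and core subunits, to which mutually exclusive subunits are added. ARID1A or ARID1B with a DPF protein makes canonical BAF, ARID2 with PBRM1, BRD7 and PHF10 makes PBAF, and BRD9 with BICRA or BICRAL makes non-canonical BAF. In inflammation these complexes are known to be needed for the induction of a subset of NF-κB target genes. Many subunits come as paralogs that replace each other during differentiation, for instance when neural progenitors become neurons.

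Of the 31 genes, 27 passed the filter on low counts and were tested among 16322 genes. The other 4 were subunits known mostly from neurons, muscle or lymphocytes. Actl6b (the neuronal actin-like subunit) and Bcl11a (a zinc-finger factor of lymphoid and neural cells) had 0 counts in all 18 libraries, where 3 counts would give 0.117 to 0.186 CPM. CPM is the count relative to the scaled library size. Bcl11b, the paralog of Bcl11a, had 4 counts in 3 libraries, and Dpf3, a histone reader of heart and muscle BAF, had 23 counts in 13 libraries. Per kb of merged exons, Actb was highest, with a mean over 18 libraries of 2237 CPM per kb. Actb encodes β-actin, which is mainly a cytoskeletal protein. The gene has many processed pseudogenes, and whether reads were shared with them was not tested. Next came Smarcc1 at 41.1, Smarca4 at 40.3 and Pbrm1 at 39.6 CPM per kb, and the lowest tested were Dpf1 at 1.55 and Ss18l1 at 1.02 CPM per kb. Without Actb, the 30 other genes took 0.191% to 0.197% of all counts in WT, 0.279% to 0.283% in p65 KO and 0.200% to 0.207% in IKK2 KO. The p65 KO range lay above both others.

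Promoters of 4 genes that differed between the lines are shown, to set their sequence beside the levels that follow; they were chosen after their values were seen, and are not the 4 largest differences. They are the ATPase gene Smarca2, the BAF gene Dpf1 and the PBAF genes Pbrm1 and Brd7. Each is the 250 bases before the RefSeq start (GRCm38.p6), 5′ to 3′ on the gene's strand, with capitals at matches to the motifs searched. The windows are chr19:26604910-26605159 (plus strand) for Smarca2, chr7:29303755-29304004 (plus) for Dpf1, chr14:31018888-31019137 (plus) for Pbrm1 and chr8:88362173-88362422 (minus) for Brd7.
Smarca2: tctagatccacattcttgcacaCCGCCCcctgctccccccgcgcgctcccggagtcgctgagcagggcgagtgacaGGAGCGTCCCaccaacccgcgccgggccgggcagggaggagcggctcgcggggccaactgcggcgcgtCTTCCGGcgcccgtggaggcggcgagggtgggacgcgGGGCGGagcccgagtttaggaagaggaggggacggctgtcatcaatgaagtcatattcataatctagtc
Dpf1: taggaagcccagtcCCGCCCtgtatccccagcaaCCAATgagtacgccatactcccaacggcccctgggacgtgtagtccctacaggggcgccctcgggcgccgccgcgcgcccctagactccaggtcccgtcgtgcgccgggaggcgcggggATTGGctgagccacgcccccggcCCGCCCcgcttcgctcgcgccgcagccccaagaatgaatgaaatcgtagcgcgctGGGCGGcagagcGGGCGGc
Pbrm1: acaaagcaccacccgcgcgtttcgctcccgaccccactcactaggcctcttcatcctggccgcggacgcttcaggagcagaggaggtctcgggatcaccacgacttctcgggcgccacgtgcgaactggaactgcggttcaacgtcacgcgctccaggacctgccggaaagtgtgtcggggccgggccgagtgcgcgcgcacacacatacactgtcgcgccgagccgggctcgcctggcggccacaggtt
Brd7: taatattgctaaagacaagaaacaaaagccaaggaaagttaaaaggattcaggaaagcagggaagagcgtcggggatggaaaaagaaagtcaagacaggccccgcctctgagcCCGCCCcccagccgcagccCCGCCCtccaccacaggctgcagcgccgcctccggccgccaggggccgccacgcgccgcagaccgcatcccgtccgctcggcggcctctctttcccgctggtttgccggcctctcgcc

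The motifs searched on both strands were the NF-κB consensus, the AP-1 site TGANTCA, the GC box GGGCGG, the CCAAT box CCAAT, the ETS site CCGGAAG and the TATA box TATAAA. A match was counted whether or not it overlapped one of another motif. Smarca2 held 2 GC boxes, 1 ETS match and 1 NF-κB match, Dpf1 held 4 GC boxes and 2 CCAAT boxes, Brd7 held 2 GC boxes, and Pbrm1 held no match. RefSeq promoters were searched for 24 of the 31 genes, beside 32817 promoters of all genes. Chromosome 18, where Ss18 lies, was left out for the subunit genes, a limit not set on the promoters of all genes. A GC box was present in 19 of the 24, against 32.7% of all promoters. An NF-κB match was present in 5 of the 24 (Bcl11a, Bcl7b, Smarca2, Smarcc2 and Smarcd1), against 7.25% of all promoters. The AP-1 site was found only before Smarcb1 and the TATA box only before Smarcd2, against 6.75% and 12.4% of all promoters. A CCAAT box stood in 5 (33.8% of all promoters) and an ETS site in 3 (6.90%). A match is a string of letters, not a bound site.

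Depth ran from 16708346 to 23469439 counts a library. Rela, the gene knocked out in p65 KO, was at 63.8 CPM in untreated WT, against 5.68 in p65 KO and 69.7 in IKK2 KO. Ikbkb was at 59.8, 42.7 and 43.4 CPM in the same order, so its transcript does not tell the IKK2 KO from the p65 KO. Tnfaip3 and Nfkbia, feedback inhibitors that NF-κB induces, were higher at 45 min than untreated in every line, with Tnfaip3 going from 8.75 to 557 CPM in WT, from 12.01 to 18.8 in p65 KO and from 34.7 to 149 in IKK2 KO. Of 15 fibroblast markers, 13 or 14 reached 1 CPM in each line and none was at 0. Their summed level was 11808 to 12209 CPM in WT and 11876 to 12353 CPM in IKK2 KO, but 5307 to 5424 CPM in p65 KO. A set of 12 neural genes summed to 514 to 629 CPM in WT, but to 203 to 221 in p65 KO and 332 to 370 in IKK2 KO, led by Nes and Sox2 in WT and IKK2 KO and by Sox2 and Map2 in p65 KO, with Dcx, Rbfox3 and Olig2 at 0 counts in all. The 9 muscle genes summed to 14.3 to 21.4 CPM in WT, 13.2 to 15.2 in p65 KO and 4.57 to 5.93 in IKK2 KO, with Myod1, Myog and Myf5 at 0. The 9 lymphoid genes stayed at or below 0.821 CPM in sum. These marker levels differ between the lines along with the subunit genes, and their part in the differences below was not tested. In bulk RNA, fewer cells of a kind and less RNA per cell cannot be told apart.

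Most subunit genes differed between the untreated lines, as did most genes. By edgeR's quasi-likelihood test, 26 of the 27 had an adjusted p under 0.05 in p65 KO against WT, where 80.8% of all genes tested did. Of these, 18 were higher (39.8% of all genes) and 8 lower (41.1%). In IKK2 KO against WT the count was 23 (74.3% of all genes), with 13 higher (35.9%) and 10 lower (38.4%). Between the knock-outs it was 22 (72.4%), with 7 higher in IKK2 KO (35.5%) and 15 lower (36.9%). The median size of the log2 difference was 0.46 for the 27 genes against 0.70 for all genes in p65 KO, and 0.24 against 0.55 in IKK2 KO. A change of at least 1.5-fold was seen in 11 of 27 (53.4% of all genes), 9 of 27 (43.9%) and 6 of 27 (43.9%) in the same order. Calls were thus common among all genes, and the list was not tested against them. The median log2 difference was 0.33 in p65 KO and 0.06 in IKK2 KO, beside -0.02 and -0.03 over all genes. After 45 min of TNF the counts were 24 (80.4%), 20 (73.8%) and 23 (73.4%), and after 90 min 25 (79.6%), 19 (73.2%) and 22 (73.3%). In all, 23 of 27 were called in 1 direction at all 3 times in p65 KO against WT (70.0% of all genes), 14 in IKK2 KO against WT (62.0%) and 20 between the knock-outs (61.7%).

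**Figure D1:**
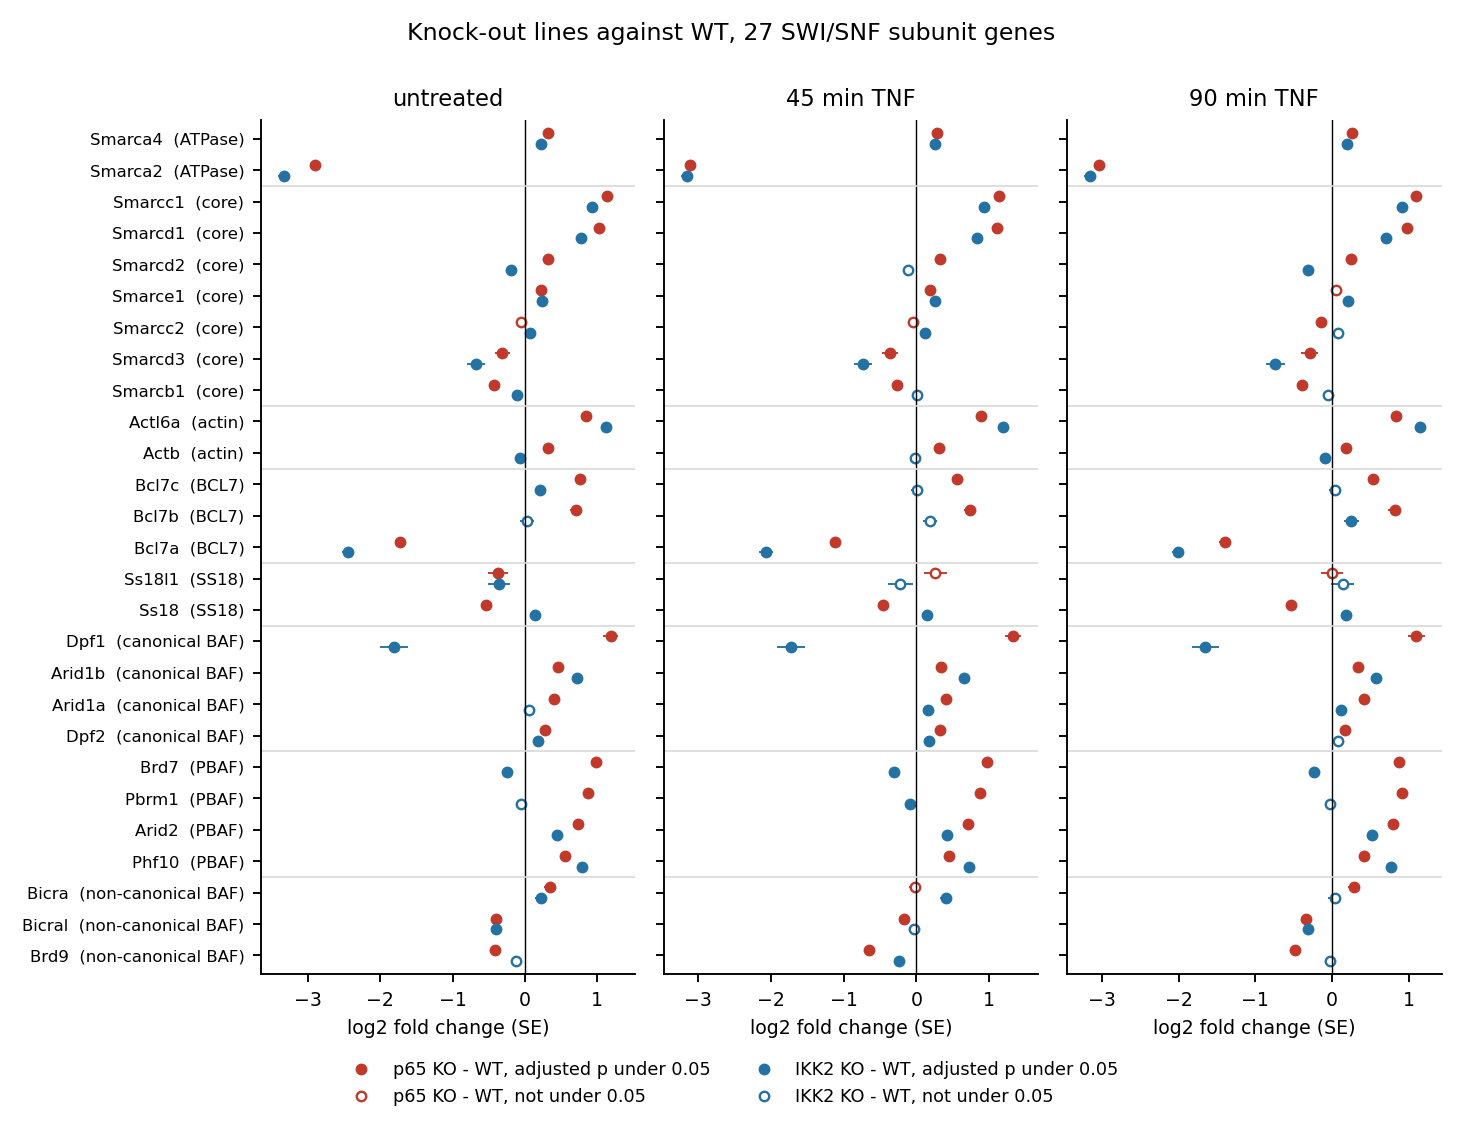
Log2 fold change of each knock-out line against WT (points, with standard errors as bars) for the 27 tested genes, ordered by role, in untreated cells and after 45 and 90 min of TNF; filled points have an adjusted p under 0.05. Smarca2 and Bcl7a lie far to the left in both knock-outs at every time, and Dpf1 lies right of 0 in p65 KO and left of 0 in IKK2 KO.

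The ATPase genes moved in opposite directions. Smarca2 (chr19:26605050-26778322, plus strand), which encodes the ATPase BRM, was at 62.8 and 62.1 CPM in untreated WT, at 8.22 and 8.40 CPM in p65 KO and at 6.31 and 6.04 CPM in IKK2 KO. Over the 6 libraries of a line it ran from 58.9 to 66.6 CPM in WT (median 62.4), from 6.83 to 8.40 CPM in p65 KO (median 7.72) and from 5.72 to 7.76 CPM in IKK2 KO (median 6.70). Every WT library was far above every knock-out library. The 2 knock-outs overlapped over all times but not when untreated, where IKK2 KO was lower than p65 KO by a log2 of -0.43 ± 0.12 (adjusted p = 0.00206, edgeR), a call that held in all 25 other fits. After 45 and 90 min of TNF this difference was -0.04 and -0.12 and did not pass (adjusted p = 0.766 and 0.385, edgeR). The untreated log2 difference was -2.91 ± 0.07 (SE) in p65 KO (adjusted p = 7.47e-34, edgeR), a 7.52-fold lower level, and -3.34 ± 0.08 in IKK2 KO (adjusted p = 2.65e-33), 10.1-fold lower. At 45 and 90 min it was -3.12 and -3.04 in p65 KO, and -3.16 at both times in IKK2 KO. Smarca4 (chr9:21616169-21704230, plus strand), which encodes the alternative ATPase BRG1, was the more abundant of the pair in every line. Its levels were 226 to 237 CPM in WT (median 230), 274 to 293 CPM in p65 KO (median 280) and 263 to 284 CPM in IKK2 KO (median 268). All 12 knock-out libraries lay above all 6 of WT, at an untreated log2 difference of 0.33 ± 0.03 in p65 KO and 0.23 ± 0.03 in IKK2 KO.

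**Figure D2:**
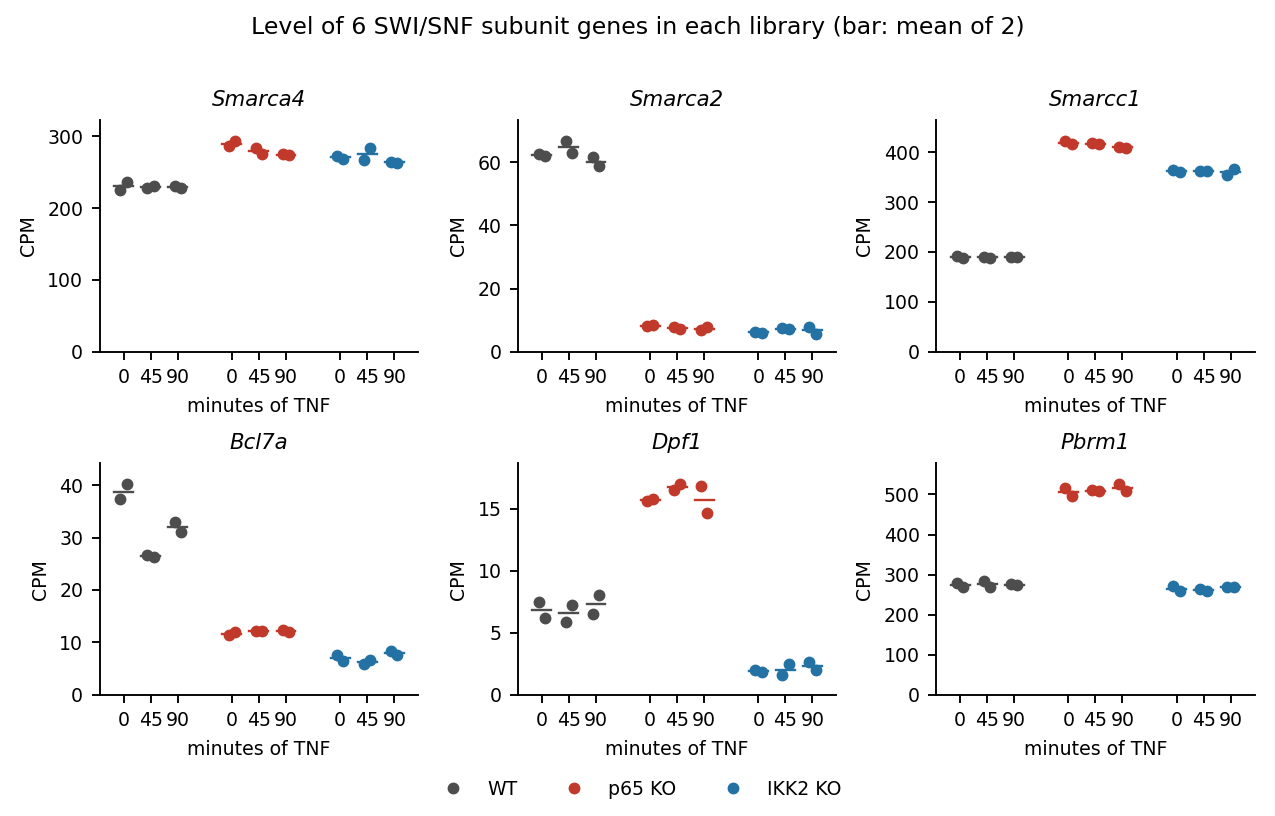
Level in CPM (y axis, from 0) of 6 subunit genes in each of the 18 libraries, by line and minutes of TNF (x axis); points are libraries and bars the mean of 2. Smarca2 is at 58.9 to 66.6 CPM in WT and at 5.72 to 8.40 CPM in the knock-outs, while Smarcc1 is higher in both.

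Of the 7 genes grouped here as core, which need not all be in every complex, 6 were called in p65 KO against WT (4 higher, 2 lower). Of all genes 80.8% were called there (39.8% higher, 41.1% lower). In IKK2 KO 7 were called (4 higher, 3 lower), against 74.3% of all genes (35.9% higher, 38.4% lower). Smarcc1, which encodes a scaffold of the core, ran from 187 to 191 CPM in WT (median 190), 409 to 422 CPM in p65 KO (median 416) and 354 to 366 CPM in IKK2 KO (median 362). The 3 lines did not overlap. Its untreated log2 difference from WT was 1.15 ± 0.03 in p65 KO (adjusted p = 2.08e-34, edgeR) and 0.94 ± 0.03 in IKK2 KO (adjusted p = 1.87e-30). Its paralog Smarcc2, the usual partner in the scaffold dimer, differed least. It was at 108 to 113 CPM in WT (median 110), 98.4 to 108 CPM in p65 KO (median 104) and 114 to 120 CPM in IKK2 KO (median 117). The p65 KO difference of -0.06 ± 0.03 did not pass (adjusted p = 0.107), though it did with size factors by relative log expression (-0.08, adjusted p = 0.026) and with protein-coding genes alone (-0.15, adjusted p = 6.32e-05). The IKK2 KO difference of 0.08 ± 0.03 (adjusted p = 0.037) was lost in 5 of 7 other fits, with adjusted p up to 0.266.

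Smarcd1, a core subunit that links the complexes to transcription factors, ran from 30.7 to 33.9 CPM in WT (median 32.5), 63.7 to 68.4 CPM in p65 KO (median 67.1) and 50.9 to 58.3 CPM in IKK2 KO (median 56.0). The lines were again separate, with log2 differences of 1.03 ± 0.05 and 0.79 ± 0.05. Its paralog Smarcd3, best known from heart and skeletal muscle, went the other way, at 9.69 to 11.6 CPM in WT (median 10.9), 7.65 to 9.63 CPM in p65 KO (median 8.76) and 5.46 to 7.12 CPM in IKK2 KO (median 7.04). Its difference was -0.31 ± 0.10 in p65 KO (adjusted p = 0.00688, edgeR) and -0.67 ± 0.12 in IKK2 KO (adjusted p = 3.37e-06). The p65 KO call was lost without untreated WT library a (adjusted p = 0.097) or untreated p65 KO library a (adjusted p = 0.124). Smarcd2, the third paralog, was at 38.5 to 41.8 CPM in WT (median 40.4), 47.9 to 51.2 CPM in p65 KO (median 49.7) and 32.9 to 38.5 CPM in IKK2 KO (median 35.2). It was higher in p65 KO by a log2 of 0.33 ± 0.05 and lower in IKK2 KO by -0.19 ± 0.06, the latter lost without untreated WT library b (adjusted p = 0.063). Smarce1, an HMG-box DNA-binding subunit, was higher in both untreated knock-outs. Over all times it was at 86.7 to 93.1 CPM in WT (median 92.0), 96.0 to 109 CPM in p65 KO (median 101) and 105 to 110 CPM in IKK2 KO (median 107). After 90 min of TNF its difference between p65 KO and WT was not called, at group means of 96.2 and 92.7 CPM. Smarcb1, which contacts the nucleosome and is a tumour suppressor in rhabdoid tumours, was at 58.1 to 67.3 CPM in WT and 46.7 to 51.5 CPM in p65 KO, a log2 difference of -0.42 ± 0.05. In IKK2 KO it was at 58.5 to 62.9 CPM, within the WT range, and its untreated difference of -0.11 ± 0.05 (adjusted p = 0.0322, edgeR) was lost with DESeq2 (adjusted p = 0.057) and without untreated WT library a or IKK2 KO library b (adjusted p = 0.207 and 0.260).

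Actl6a, the actin-like subunit of dividing cells, was at 44.2 to 46.8 CPM in WT (median 46.0), 77.3 to 86.2 CPM in p65 KO (median 83.7) and 97.4 to 106 CPM in IKK2 KO (median 101). It separated all 3 lines, at a log2 difference of 0.85 ± 0.05 in p65 KO (adjusted p = 5.29e-20, edgeR) and 1.12 ± 0.05 in IKK2 KO (adjusted p = 8.27e-24). Actb was at 5528 to 5855 CPM in WT (median 5624), 6643 to 7065 CPM in p65 KO (median 6894) and 5326 to 5503 CPM in IKK2 KO (median 5459). It was higher in p65 KO by a log2 of 0.33 ± 0.02.

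The 3 BCL7 genes encode small subunits of the ATPase module. Bcl7a (chr5:123343834-123374992, plus strand) was at 37.3 and 40.1 CPM in untreated WT, at 11.4 and 11.9 CPM in p65 KO and at 7.67 and 6.50 CPM in IKK2 KO. Over all times it ran from 26.3 to 40.1 CPM in WT (median 32.0), 11.4 to 12.3 CPM in p65 KO (median 12.04) and 5.97 to 8.28 CPM in IKK2 KO (median 7.14). The lines did not overlap, and the untreated log2 difference was -1.73 ± 0.07 in p65 KO (adjusted p = 9.39e-26, edgeR) and -2.45 ± 0.08 in IKK2 KO (adjusted p = 6.26e-28). Bcl7b was at 10.7 to 13.2 CPM in WT (median 11.96), 18.1 to 21.3 CPM in p65 KO (median 20.3) and 12.1 to 15.4 CPM in IKK2 KO (median 13.3). Bcl7c was at 22.5 to 26.8 CPM in WT (median 24.7), 36.0 to 40.8 CPM in p65 KO (median 37.5) and 23.7 to 28.2 CPM in IKK2 KO (median 26.3). Both were higher in p65 KO, by 0.71 ± 0.08 and 0.76 ± 0.06 on the log2 scale, while the IKK2 KO ranges overlapped those of WT. The untreated IKK2 KO difference of Bcl7b was 0.03 ± 0.10 (adjusted p = 0.80) and that of Bcl7c 0.21 ± 0.07 (adjusted p = 0.00939). The Bcl7c call was lost with DESeq2 (adjusted p = 0.062) and without untreated library a of WT or IKK2 KO (adjusted p = 0.106 and 0.118).

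Ss18, known for its fusion in synovial sarcoma, lies on chromosome 18 and was at 71.0 to 77.3 CPM in WT (median 73.5), 49.9 to 54.1 CPM in p65 KO (median 51.3) and 79.3 to 85.6 CPM in IKK2 KO (median 82.6). It was lower in p65 KO by -0.54 ± 0.04 and higher in IKK2 KO by 0.15 ± 0.04. Ss18l1, its paralog of postmitotic neurons, was scarce, at 4.01 to 5.52 CPM in WT (median 4.41), 3.72 to 5.15 CPM in p65 KO (median 4.54) and 3.23 to 4.91 CPM in IKK2 KO (median 4.26). The ranges of the 3 lines overlapped. Its untreated differences of -0.36 ± 0.14 in p65 KO (adjusted p = 0.0162, edgeR) and -0.36 ± 0.15 in IKK2 KO (adjusted p = 0.0302) were lost with DESeq2 (adjusted p = 0.074 and 0.104) and without either untreated WT library, p65 KO library b or IKK2 KO library a.

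Among the genes of canonical BAF, 4 of 4 tested were higher in p65 KO (39.8% of all genes), and in IKK2 KO 2 were higher (35.9%) and 1 lower (38.4%). Dpf1 (chr7:29303951-29318243, plus strand), a histone reader known from neurons, was the only gene of the 27 past 1.5-fold in opposite directions in the 2 knock-outs. Its untreated values were 7.46 and 6.18 CPM in WT, 15.7 and 15.8 in p65 KO, and 2.04 and 1.88 CPM in IKK2 KO. Over all times the lines spanned 5.88 to 8.06 CPM (median 6.91), 14.7 to 16.98 CPM (median 16.2) and 1.56 to 2.64 CPM (median 2.02), without overlap. The log2 difference from WT was 1.19 ± 0.11 in p65 KO (adjusted p = 1.97e-13, edgeR) and -1.81 ± 0.19 in IKK2 KO (adjusted p = 1.95e-11). Dpf2, the widely expressed paralog, was at 42.4 to 47.9 CPM in WT, 51.3 to 57.6 in p65 KO and 48.6 to 51.3 in IKK2 KO. Arid1a, a DNA-binding subunit that is often mutated in cancer, was at 127 to 139 CPM in WT (median 132), 171 to 184 CPM in p65 KO (median 174) and 139 to 153 CPM in IKK2 KO (median 142). It was higher in p65 KO by 0.40 ± 0.04, and its untreated difference in IKK2 KO was 0.06 ± 0.04 (adjusted p = 0.168). Arid1b, the alternative to Arid1a, was highest in IKK2 KO, at 77.3 to 80.7 CPM in WT (median 78.4), 98.1 to 107 CPM in p65 KO (median 102) and 117 to 128 CPM in IKK2 KO (median 125). The lines were separate, with log2 differences of 0.46 ± 0.03 and 0.72 ± 0.03.

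The 4 PBAF genes were all higher in p65 KO, by a log2 of 0.56 to 0.98, where 39.8% of all genes were higher. Pbrm1 (chr14:31019138-31121592, plus strand), a protein of many bromodomains that binds acetylated histones, was at 270 to 285 CPM in WT (median 275), 496 to 525 CPM in p65 KO (median 510) and 259 to 271 CPM in IKK2 KO (median 267). Its difference was 0.88 ± 0.03 in p65 KO (adjusted p = 5.89e-29, edgeR) and -0.05 ± 0.03 in IKK2 KO (adjusted p = 0.137), which passed at -0.07 with relative log expression size factors (adjusted p = 0.032) or protein-coding genes alone (adjusted p = 0.026). Brd7 (chr8:88331039-88362194, minus strand), a bromodomain protein found only in PBAF, was at 59.8 to 67.1 CPM in WT (median 64.1), 119 to 126 CPM in p65 KO (median 121) and 49.8 to 56.8 CPM in IKK2 KO (median 53.0). It separated all 3 lines, at 0.98 ± 0.04 in p65 KO and -0.25 ± 0.05 in IKK2 KO. Arid2, the ARID protein of PBAF, and Phf10, its PHD finger subunit, were higher in both knock-outs. Arid2 ran from 119 to 124 CPM in WT (median 122), 199 to 210 CPM in p65 KO (median 206) and 162 to 174 CPM in IKK2 KO (median 169). Phf10 ran from 52.3 to 57.3 CPM in WT (median 53.9), 72.2 to 80.4 CPM in p65 KO (median 74.8) and 88.5 to 96.0 CPM in IKK2 KO (median 92.4). Brd7 and Pbrm1 also separated the knock-outs from each other: the difference between the knock-outs was -1.23 ± 0.04 on the log2 scale for Brd7 (adjusted p = 3.87e-28) and -0.93 ± 0.03 for Pbrm1 (adjusted p = 3.32e-29, edgeR).

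Of the non-canonical BAF genes, Brd9, the bromodomain protein that defines this complex, was at 29.2 to 33.5 CPM in WT (median 31.1), 21.3 to 24.2 CPM in p65 KO (median 21.5) and 28.1 to 30.5 CPM in IKK2 KO (median 28.6). It was lower in p65 KO by -0.41 ± 0.06 (adjusted p = 5.21e-08, edgeR). The untreated IKK2 KO difference was -0.12 ± 0.06 (adjusted p = 0.0847), and passed with relative log expression size factors (-0.14, adjusted p = 0.043) or without untreated WT library b (-0.18, adjusted p = 0.022). Bicral, which with its paralog Bicra completes the complex, was at 30.4 to 39.1 CPM in WT (median 37.1), 27.5 to 31.2 CPM in p65 KO (median 29.1) and 28.2 to 33.6 CPM in IKK2 KO (median 29.2). It was lower in both untreated knock-outs, by -0.39 ± 0.06 and -0.40 ± 0.07. Bicra went the other way, at 14.2 to 20.9 CPM in WT (median 17.7), 18.4 to 22.2 CPM in p65 KO (median 20.4) and 16.2 to 26.7 CPM in IKK2 KO (median 20.1), with overlap of all 3 lines over the time course. Its untreated difference was 0.35 ± 0.08 in p65 KO and 0.23 ± 0.08 in IKK2 KO (adjusted p = 0.0151), the latter lost with DESeq2 (adjusted p = 0.091) and without WT library a or IKK2 KO library b (adjusted p = 0.072 and 0.126).

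Since many paralogs compete for a place in the complex, the share of each in the summed CPM per kb of its family was compared between lines over 6 libraries each. The test was a two-sided exact permutation of line labels within each time, with a smallest possible p of 0.00926. Of 42 tests, 34 had a Benjamini-Hochberg adjusted p under 0.05 and 30 were at the smallest p. The tests are not separate, as the shares of a family add up to the whole. Dpf3, which failed the filter on low counts, passed in p65 KO against WT (adjusted p = 0.0354, exact permutation). The 6 libraries are 1 line at 3 times, and 72.4% to 80.8% of all genes tested were called between the untreated lines. Shares of other gene families were not computed. The size of a share depends on the length each gene is divided by. Smarca2 made up 10.5% to 11.7% of the ATPase pair in WT (median 10.9%), 1.11% to 1.28% in p65 KO (median 1.24%) and 0.977% to 1.31% in IKK2 KO (median 1.08%). Its merged exons span 14269 bases and those of Smarca4 6475, but their coding lengths are 5131 and 4950. By coding length the Smarca2 share would be larger in every line. Each knock-out differed from WT (exact p = 0.00926, adjusted 0.013, n = 6 a line), while the knock-outs differed by -0.11 points (exact p = 0.139, adjusted 0.162). The Smarcc2 share of the Smarcc pair had a median of 44.9% in WT, 26.0% in p65 KO and 31.2% in IKK2 KO, with no overlap between any of the lines. The level of Smarcc2 itself changed little (medians of 110, 104 and 117 CPM). Smarcc1, its partner in the scaffold dimer, was higher in the knock-outs (medians of 190, 416 and 362 CPM). Smarcd1 made up a median of 37.6% of its trio in WT, 51.6% in p65 KO and 55.4% in IKK2 KO, while Smarcd3 made up 10.1%, 5.39% and 5.41%.

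In the BCL7 family, Bcl7a took a median of 29.7% in WT, with a range of 23.7% to 34.3%, against 8.49% in p65 KO and 7.67% in IKK2 KO. Bcl7b held 42.0%, 56.9% and 55.6% in the same order. Merged exons span 9490 bases in Bcl7a but 2404 in Bcl7b, while their coding lengths are 695 and 612 bases. Which of them ranked higher in WT therefore depends on the length used. Dpf1 held 15.2% of the DPF family in WT, 26.3% in p65 KO and 4.67% in IKK2 KO, with Dpf2 taking nearly all of the rest. Arid1b made up 35.2% of the ARID1 pair in WT and 34.6% in p65 KO, which did not differ beyond their spread (difference -0.43 points, exact p = 0.407, adjusted 0.450, n = 6 a line). In IKK2 KO it made up 43.7%, above every library of both other lines. Bicral made up 71.0% of its pair in WT, 62.2% in p65 KO and 62.8% in IKK2 KO, and Ss18l1 11.8%, 15.8% and 9.87% of its own. All differences from WT given here were at the smallest p except Arid1b, Bicral and Dpf3 in p65 KO and Ss18l1 in IKK2 KO. For Bicral the exact p was 0.0185 (adjusted 0.0251). For Dpf3 and for Ss18l1 the exact p was 0.0278 (adjusted 0.0354). A share of transcripts is not a share of protein in a complex.

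**Figure D3:**
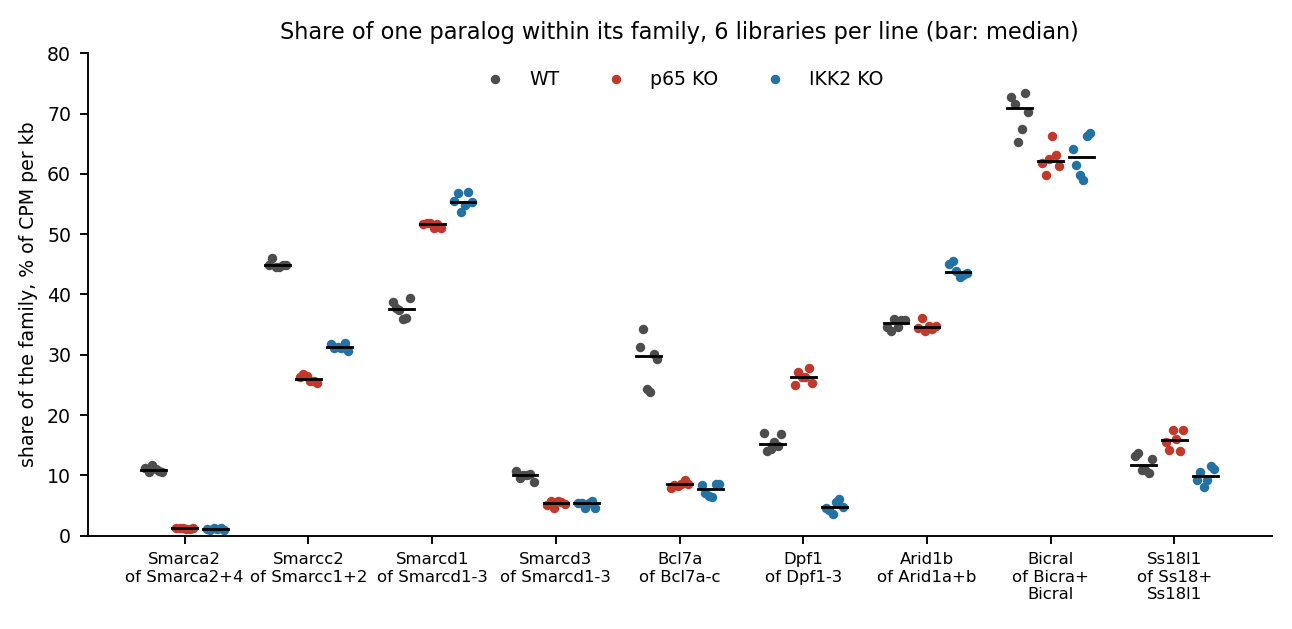
Share of 9 paralogs in the summed CPM per kb of their family (y axis, %), for the 6 libraries of each line (points) with the median (bar). The Smarca2, Smarcc2, Smarcd3 and Bcl7a shares of both knock-outs lie below WT, Dpf1 goes up in p65 KO and down in IKK2 KO, and the Arid1b share is raised in IKK2 KO.

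Immortalised lines can differ over whole stretches of a chromosome, so each gene was set beside the other tested genes within 2 Mb. In p65 KO the 13 neighbours of Smarca2 had a median log2 difference of -0.21 and a lower quartile of -2.30, and 2 of them lay below the -2.91 of Smarca2. In IKK2 KO their median was 0.00 and their lower quartile -0.86, and 0 of 13 lay below Smarca2. Bcl7a lay at -1.73 and -2.45 in the 2 knock-outs against medians of 0.07 and -0.06 for 95 neighbours, of which 17 and 4 lay below it. Smarcc1 lay at 1.15 and 0.94 against medians of -0.26 and -0.09 for 66 neighbours, of which 4 and 3 lay above it. Actl6a lay at 0.85 and 1.12 against medians of -0.20 and 0.49 for 25 neighbours, of which 2 and 1 lay above it. For the 5 genes that follow the median of the neighbourhood had the same sign as the gene in the line named. The same held above for Smarca2 in p65 KO and for Bcl7a and Actl6a in IKK2 KO. In p65 KO the 41 neighbours of Pbrm1 had a median of 0.80 beside 0.88 for Pbrm1, the 13 of Brd7 had 0.63 beside 0.98, and the 77 of Smarcd1 had 0.52 beside 1.03. Around Ss18 the median was -0.64 for 13 genes and -0.58 for 441 genes of chromosome 18, beside -0.54 for Ss18 itself. In IKK2 KO the 109 neighbours of Dpf1 had a median of -0.80 and 1168 genes of chromosome 7 a median of -0.59, beside -1.81 for Dpf1. Of these neighbours 17 lay below Dpf1. The signs were opposite for Dpf1 and Ss18 in the other knock-out. In p65 KO Dpf1 lay at 1.19 against a median of -0.09, with 8 of 109 neighbours above it. In IKK2 KO Ss18 lay at 0.15 against a median of -0.30. Genes not named here also lay near their neighbourhood, such as Arid1a in p65 KO at 0.40 beside 0.35 and Actb at 0.33 beside 0.27. Others lay on the opposite side of 0, such as Bicral in p65 KO at -0.39 beside 0.49. The part of regional shifts in the values of Pbrm1, Brd7, Smarcd1, Ss18, Dpf1 or any other subunit gene was not tested.

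**Figure D4:**
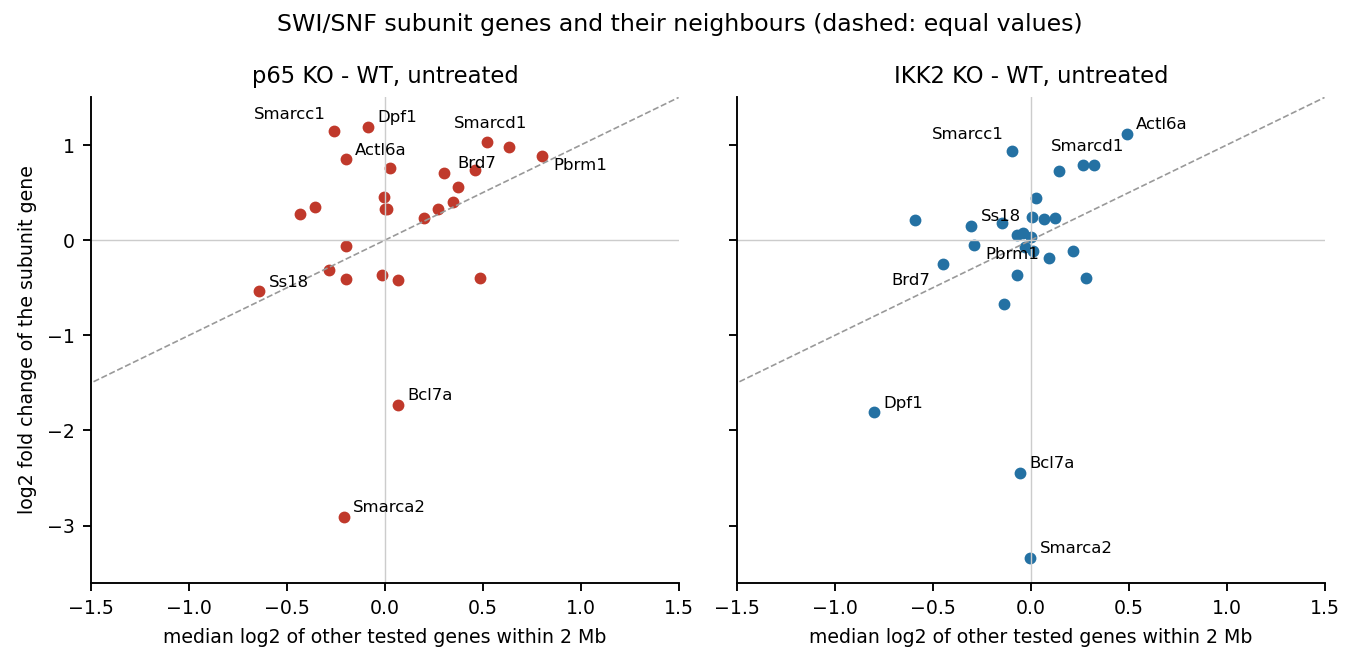
Untreated log2 fold change of each of the 27 genes (y axis) against the median log2 fold change of the other tested genes within 2 Mb (x axis), for p65 KO and IKK2 KO against WT; the dashed line marks equal values. Smarca2, Bcl7a and Smarcc1 lie far from the line, Pbrm1 and Ss18 close to it in p65 KO, and Dpf1 in IKK2 KO lies below a neighbourhood that is itself at -0.80.

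Other chromatin regulators were read for comparison. In p65 KO against WT, 6 of 9 tested ISWI genes were higher and 1 lower, 14 of 21 CHD and NuRD genes were higher and 6 lower, 16 of 26 INO80, SRCAP and TIP60 genes were higher and 6 lower, and 16 of 25 Polycomb genes were higher and 4 lower, beside 39.8% of all genes higher and 41.1% lower. The list medians were 0.41, 0.34, 0.28 and 0.32 on the log2 scale, near the 0.33 of the SWI/SNF genes. In IKK2 KO against WT the counts of higher and lower genes were 4 and 3, 12 and 1, 13 and 5, and 9 and 9, beside 35.9% and 38.4% of all genes, with medians of 0.22, 0.25, 0.22 and -0.03. Baz1b, a partner of the ISWI ATPase, was at 244 CPM in WT and 402 CPM in p65 KO, and Hdac1, a histone deacetylase of NuRD, at 55.2 and 113 CPM. Ezh2, a Polycomb histone methyltransferase, was at 71.0 and 141 CPM, while Epc1, a TIP60 subunit, was at 40.7 and 16.4 CPM. Ruvbl1, an ATPase shared by INO80 and TIP60, was at 40.5 CPM in WT, 96.3 in p65 KO and 79.2 in IKK2 KO. Chd7, a CHD remodeller, was at 13.6 CPM in WT and 109 CPM in IKK2 KO (adjusted p = 2.35e-37, edgeR).

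Calls after TNF were a minority among the subunit genes, as among all genes tested, and the list was not tested against all genes. At 45 min in WT, 2 of 27 were called (12.2% of all genes), Bcl7a and Ss18l1, and at 90 min 1 of 27 (9.32%). In p65 KO the counts were 0 at 45 min (1.66%), where 4 had an unadjusted p under 0.05 by edgeR and 0 were called by DESeq2, and 3 at 90 min (6.48%). In IKK2 KO they were 1 at 45 min (8.76%) and 1 at 90 min (4.48%). Between 45 and 90 min, 3 were called in WT (14.3%), 0 in p65 KO (2.73%), again with 4 at an unadjusted p under 0.05 and 0 by DESeq2, and 5 in IKK2 KO (15.7%). The median size of the change among the 27 genes was 0.04 to 0.07 on the log2 scale in the 6 comparisons with untreated cells, beside 0.08 to 0.10 over all genes. Neither ATPase gene, nor Arid1a, Pbrm1 or Brd9, was called in any line at either time. The counts of 1 to 5 are small, and most single calls ended under another test or without 1 library, as given for each gene.

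Bcl7a had the largest response in WT. Its values were 37.3 and 40.1 CPM untreated, 26.6 and 26.3 CPM at 45 min and 33.0 and 31.1 CPM at 90 min. The groups did not overlap, and the level at 90 min lay between the other times. The log2 change was -0.55 ± 0.06 at 45 min (adjusted p = 9.90e-10, edgeR) and -0.27 ± 0.06 at 90 min (adjusted p = 5.90e-04), and from 45 to 90 min Bcl7a rose by 0.28 ± 0.06 (adjusted p = 0.00121), a rise lost with DESeq2 (adjusted p = 0.057). In p65 KO it was at 11.4 and 11.9 CPM untreated, 12.2 and 12.1 CPM at 45 min and 12.3 and 11.9 CPM at 90 min, with changes of 0.07 ± 0.09 and 0.05 ± 0.08. In IKK2 KO it was at 7.67 and 6.50, 5.97 and 6.67, and 8.28 and 7.61 CPM, with changes of -0.16 ± 0.13 and 0.17 ± 0.12 that did not pass (adjusted p = 0.58 and 0.595, edgeR). The response of p65 KO differed from that of WT by 0.61 ± 0.10 at 45 min (adjusted p = 3.95e-05). At 90 min the difference was 0.32 ± 0.10 (adjusted p = 0.0497), a call lost in 3 of 7 other fits and in 13 of 18 fits without 1 library, with adjusted p up to 0.295. For IKK2 KO against WT the difference was 0.38 ± 0.14 at 45 min (adjusted p = 0.134) and 0.44 ± 0.13 at 90 min (adjusted p = 0.0656, edgeR).

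Bicra was called in IKK2 KO at 45 min, though its response there was not called as different from that of WT. That difference of responses was 0.18 at 45 min and -0.19 at 90 min on the log2 scale. Bicra in IKK2 KO was at 19.5 and 20.6 CPM untreated, 26.1 and 26.7 CPM at 45 min and 16.8 and 16.2 CPM at 90 min. The 45 min libraries were above the untreated ones and the 90 min libraries below them. The change was 0.39 ± 0.08 at 45 min (adjusted p = 4.62e-04, edgeR) and -0.28 ± 0.09 at 90 min (adjusted p = 0.0519), and from 45 to 90 min Bicra fell by 0.68 ± 0.08 on the log2 scale (adjusted p = 1.28e-08). The 90 min change passed with protein-coding genes alone, with no filter on low counts and with only the groups compared in the fit (adjusted p = 0.027, 0.026 and 0.046), and without any 1 of 5 libraries of the other lines. In WT Bicra was at 16.98 and 17.4, 18.7 and 20.9, and 14.2 and 17.95 CPM, with a 45 min change of 0.21 ± 0.08 that did not pass (adjusted p = 0.0906, edgeR). From 45 to 90 min in WT it changed by -0.30 ± 0.09 (adjusted p = 0.0101), lost with DESeq2 (adjusted p = 0.062) and without WT 45 min library b or WT 90 min library a (adjusted p = 0.249 and 0.417). In p65 KO it was at 21.6 and 22.2, 20.7 and 18.4, and 19.3 and 20.1 CPM. The p65 KO response at 45 min differed from that of WT by -0.37 ± 0.11 (adjusted p = 0.0323, edgeR), a call lost with DESeq2 (adjusted p = 0.201) and without any of 6 single libraries.

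**Figure D5:**
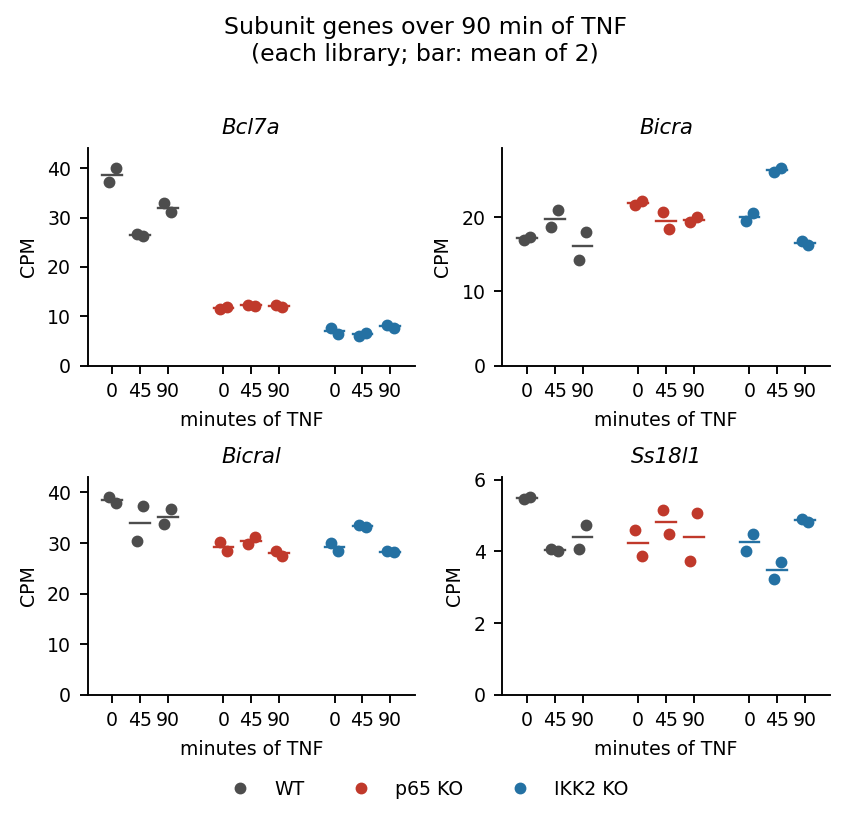
Level in CPM (y axis, from 0) of Bcl7a, Bicra, Bicral and Ss18l1 at 0, 45 and 90 min of TNF in each line (x axis); points are libraries and bars the mean of 2. Bcl7a drops in WT at 45 min, from 37.3 and 40.1 to 26.6 and 26.3 CPM, and Bicra is highest in the 45 min libraries of IKK2 KO, at 26.1 and 26.7 CPM.

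Bicral, the paralog of Bicra, was at 39.1 and 37.9 CPM untreated, 30.4 and 37.4 CPM at 45 min and 33.7 and 36.7 CPM at 90 min in WT. In IKK2 KO it was at 29.9 and 28.5, 33.6 and 33.1, and 28.4 and 28.2 CPM. The 45 min response of IKK2 KO differed from that of WT by 0.37 ± 0.10 (adjusted p = 0.0112, edgeR), and the fall from 45 to 90 min in IKK2 KO was -0.24 ± 0.07 (adjusted p = 0.0139). The response difference was lost with DESeq2 (adjusted p = 0.051) and without any of 3 single libraries, most without WT 45 min library a (0.24, adjusted p = 0.182), and the fall with DESeq2 (adjusted p = 0.055) and without any 1 of its 4 libraries. Ss18l1 in WT was at 5.46 and 5.52 CPM untreated, 4.07 and 4.01 CPM at 45 min and 4.08 and 4.75 CPM at 90 min. Its 45 min change of -0.44 ± 0.15 (adjusted p = 0.0436, edgeR) and its rise from 45 to 90 min in IKK2 KO of 0.49 ± 0.17 (adjusted p = 0.0369) were both lost with DESeq2 (adjusted p = 0.269 and 0.193) and without any 1 of their 4 libraries.

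The remaining calls were small. In p65 KO at 90 min Smarce1 was at 96.3 and 96.0 CPM, from 109 and 105 CPM untreated, a change of -0.15 ± 0.03 (adjusted p = 0.00236, edgeR) that was lost without untreated p65 KO library a (adjusted p = 0.102). Smarcc2 went from 107 and 108 CPM to 100 and 98.4 CPM (-0.11 ± 0.03, adjusted p = 0.0297) and Actb from 7065 and 7028 CPM to 6674 and 6643 CPM (-0.08 ± 0.02, adjusted p = 0.0180). Both were lost without any 1 of the 4 libraries compared, and Smarcc2 with DESeq2 (adjusted p = 0.155). The 90 min response of p65 KO differed from that of WT by -0.18 ± 0.05 for Smarce1 (adjusted p = 0.0232, edgeR) and -0.14 ± 0.03 for Actb (adjusted p = 0.00300). The Smarce1 difference was lost with DESeq2 (adjusted p = 0.172) and without any of 7 single libraries, and the Actb difference held in all 25 other fits. From 45 to 90 min in WT Actb went from 5528 and 5614 CPM to 5855 and 5837 CPM, a change of 0.07 ± 0.02 (adjusted p = 0.0291), lost in 2 of 7 other fits and without any of 5 single libraries. In IKK2 KO at 90 min Arid1b was at 117 and 119 CPM, from 128 and 128 CPM untreated (-0.12 ± 0.03, adjusted p = 0.0316, edgeR), lost with DESeq2 (adjusted p = 0.187) and without any 1 of these 4 libraries. From 45 to 90 min in IKK2 KO, Brd7 went from 49.8 and 50.6 CPM to 54.0 and 56.8 CPM (0.14 ± 0.05, adjusted p = 0.0342). Smarcd2 went from 38.5 and 36.1 CPM to 32.9 and 32.9 CPM (-0.19 ± 0.06, adjusted p = 0.0212, edgeR). Both were lost with DESeq2 (adjusted p = 0.176 and 0.088) and without any of 7 and 3 single libraries. Differences of responses were called for 2 of 27 genes in p65 KO at 45 min (7.08% of all genes), 3 at 90 min (5.39%), 1 in IKK2 KO at 45 min (4.86%) and 0 at 90 min (2.35%), where 3 had an unadjusted p under 0.05 and DESeq2 called 0.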

How the data were processed

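The deposited table gives gene counts for 18 libraries, of which 31.8% of the non-zero entries are fractional. How the fractions arose is not stated, and the deposited values were handled like expected counts and rounded before testing. Per the submitters' processing notes, the authors' tools included HISAT2 and featureCounts (Subread 1.6.2) on GRCm38, beside edgeR 3.26.4, Trimmomatic and FastQC 0.11.8. Per the labels' protocols, RNA was extracted with Trizol and directional paired-end libraries were read at 76 bases. Strandedness of counting, treatment of multi-mapped reads and the gene annotation: not given in the sources used here. Symbols and positions came from GENCODE M21, which holds all 55536 gene IDs. The columns give each library's line and time but no replicate number.

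In R 4.3.3, edgeR 4.0.16 (TMM scaling, filterByExpr, robust quasi-likelihood F-test, 1 coefficient per group over all 18 libraries, 9 residual degrees of freedom) tested 16322 genes in line differences, time contrasts and differences of responses. P-values were adjusted by Benjamini-Hochberg over all genes of a contrast, with 0.05 as the threshold. The code was tested on simulated data. CPM uses the TMM-scaled library sizes, and levels are compared between genes only per kb of exon. Paralog shares were tested in Python 3.11.15 by exact permutation. Alternatives were DESeq2 1.42.0, other size factors, filters, rounding and sample sets, other length scalings for shares, and leaving out each library. The 31 genes and all lists were chosen with earlier results of these data known. Library values are given for genes called at 1.5-fold or more between any lines or called in any TNF comparison, and for Smarca4, Smarca2, Arid1a, Pbrm1, Brd9 and Actb. Of the other lists, at most 4 genes each with the largest changes were eligible to be named.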

Additional observations from a re-analysis of the deposited data

Results flagged for a closer look

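In 6 cases a knock-out's TNF response differed from the WT response by the interaction test of edgeR's quasi-likelihood model. At 45 min these were Bcl7a (0.61) and Bicra (-0.37) for p65 KO and Bicral (0.37) for IKK2 KO, as log2 differences of responses. At 90 min they were Bcl7a (0.32), Actb (-0.14) and Smarce1 (-0.18), all for p65 KO. Only the Bcl7a difference at 45 min and the Actb difference held in every other fit and without each library, and all share the WT libraries. Whether Actb shares reads with its pseudogenes was not tested.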

How the results depend on the processing

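The counts of subunit genes called between lines stayed within 1.5 times of those reported under every alternative. Those for TNF were small and moved. With DESeq2 the count was 1 in place of 2 (WT, 45 min), 1 in place of 3 (WT, 45 to 90 min), 0 in place of 1 (IKK2 KO, 90 min) and 1 in place of 5 (IKK2 KO, 45 to 90 min). For differences of responses DESeq2 gave 1 in place of 2 (p65 KO, 45 min), 0 in place of 1 (IKK2 KO, 45 min) and 1 in place of 3 (p65 KO, 90 min). With protein-coding genes alone, or with no filter on low counts, the count was 4 in place of 2 (WT, 45 min) and 2 in place of 1 (IKK2 KO, 90 min). It was also 2 there with only the groups compared, and 1 in place of 3 in p65 KO at 90 min with no filter. Without 1 library the counts ran from 1 to 4 (WT, 45 min), 1 to 3 (WT, 45 to 90 min), 0 to 3 (p65 KO, 90 min), 1 to 2 (IKK2 KO, 45 min), 0 to 2 (IKK2 KO, 90 min) and 1 to 5 (IKK2 KO, 45 to 90 min). For differences of responses they ran from 1 to 3 and 1 to 3 in p65 KO and from 0 to 1 and 0 to 1 in IKK2 KO, at 45 and 90 min. The cause of these moves was not tested.

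Without 1 library, 2 uncalled log2 values changed sign: Bcl7b in untreated IKK2 KO against WT ran from -0.061 to 0.149 (-0.03 without IKK2 KO library b), and Bicra in WT at 90 min from -0.276 to 0.065. Of shares, in points, the knock-outs' difference in Bcl7b changed from -0.386 to 0.0106 with coding length, and that in Bcl7c from 1.30 to 1.95 with coding length and 2.03 with counts not divided by length, both then past the threshold. Without 1 library the knock-outs' differences ran from -1.10 to 0.329 (Bcl7b), -1.13 to -0.701 (Bcl7a), -0.309 to 0.0594 (Smarcd3) and -0.177 to 1.09 (Bicral), and Ss18l1 in IKK2 KO against WT from -2.44 to -1.70. Across the other fits, leaving aside those without 1 library, 707 values of single genes kept their direction and side of the threshold. Of the rest, 33 no longer passed the threshold and 9 newly passed it. In the fits without 1 library, 1824 values kept both, 92 no longer passed, 7 newly passed and 3 changed sign. No scaling moved the median over all genes by over 0.1. No paired analysis was possible because the table's columns carry no replicate number. With 2 libraries a group, small TNF changes rest on little replication.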
